A study of Mus musculus with 2 samples.

Results

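The 6 mouse Dlx genes are homeobox genes related to Distal-less of the fly. They lie in 3 pairs, Dlx1 with Dlx2 on chromosome 2, Dlx5 with Dlx6 on chromosome 6 and Dlx3 with Dlx4 on chromosome 11, and are described here by the H2AZ peaks listed over them. All 6 genes, of 21770 protein-coding genes in the gene table, were taken by name, and 6 of 21546 peaks lay over the 3 pair regions, each made of both genes, the stretch between them and 20 kb on either side. The peaks come from chromatin immunoprecipitation with sequencing (ChIP-seq) of E13 brain, from neural progenitor cells of C57BL/6 mouse embryos, with 1 H2AZ ChIP library and 1 input library from the same kind of cells. H2AZ is a variant of histone H2A that takes the place of the canonical histone in some nucleosomes. The labels name no transgene, mutation or treatment, and give neither the part of the brain the cells came from nor the number of embryos. With a single library of each kind there were no replicates, so the values below describe 1 peak list, without a test or an error.

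Dlx proteins are transcription factors that bind DNA through their homeodomain. In the embryonic forebrain, Dlx1, Dlx2, Dlx5 and Dlx6 are known from the ganglionic eminences, where they act in the production, migration and differentiation of GABAergic neurons; Dlx1 and Dlx2 act first, in progenitors, and Dlx5 and Dlx6 follow. Dlx3 is known from placenta, skin, hair and teeth, and Dlx4 from the branchial arches, and neither is a classic forebrain gene. The genes of a pair are transcribed towards each other, so the outer ends of a pair are the 5′ ends of its genes, the inner ends are their 3′ ends, and enhancers shared by a pair are known in the stretch between its genes.

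RefSeq promoter sequences of GRCm38.p6 (250 bases before to 50 after a start site) were matched for 2 of the 6 members, Dlx1 and Dlx2, and for the opposite-strand RNA genes Dlx6os1, Dlx6os2 and Dlx4os. The 250 bases before 4 of these start sites are printed 5′ to 3′ along the strand of transcription, with every CG dinucleotide in capitals, because the windows inside a peak and those outside differ in their number of CGs. They are chr2:71529195-71529444 on the + strand for Dlx1, chr2:71546755-71547004 on the - strand for Dlx2, chr6:6869534-6869783 on the - strand for a start of Dlx6os1 between Dlx6 and Dlx5, and chr11:95144803-95145052 on the + strand for Dlx4os, whose start lies inside Dlx4.
Dlx1: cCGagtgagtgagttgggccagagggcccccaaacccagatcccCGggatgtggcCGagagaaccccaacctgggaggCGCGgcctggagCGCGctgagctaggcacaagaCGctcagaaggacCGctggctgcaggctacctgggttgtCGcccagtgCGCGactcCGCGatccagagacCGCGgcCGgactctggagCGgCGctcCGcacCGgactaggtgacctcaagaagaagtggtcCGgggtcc
Dlx2: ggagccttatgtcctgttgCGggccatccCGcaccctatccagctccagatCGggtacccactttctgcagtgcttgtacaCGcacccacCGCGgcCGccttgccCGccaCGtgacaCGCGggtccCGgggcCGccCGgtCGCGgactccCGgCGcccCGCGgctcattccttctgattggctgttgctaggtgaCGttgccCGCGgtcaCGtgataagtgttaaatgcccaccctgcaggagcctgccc
Dlx6os1: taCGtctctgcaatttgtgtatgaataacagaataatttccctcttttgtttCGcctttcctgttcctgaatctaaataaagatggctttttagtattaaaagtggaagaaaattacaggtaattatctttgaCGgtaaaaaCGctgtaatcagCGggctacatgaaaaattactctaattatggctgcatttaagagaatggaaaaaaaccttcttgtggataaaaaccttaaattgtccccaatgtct
Dlx4os: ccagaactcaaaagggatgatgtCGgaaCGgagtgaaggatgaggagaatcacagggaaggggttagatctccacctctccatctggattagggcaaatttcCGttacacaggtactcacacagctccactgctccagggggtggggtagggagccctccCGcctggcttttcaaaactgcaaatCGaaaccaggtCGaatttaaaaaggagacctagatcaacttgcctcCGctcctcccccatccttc

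All Dlx genes except Dlx4 had a listed peak at their outer end. A peak within 1 kb of either end of the gene was listed at 5 of 6 members, against 55.4% of all protein-coding genes. At these 5 genes the peak stood at the outer end, and an inner end had a peak at 0 of 6 members. The scores, which are the authors' own values for each peak in a unit that is not named, ran from 8.83 at Dlx1 through 9.55 at Dlx3, 10.44 at Dlx6 and 12.23 at Dlx5 to 14.9 at Dlx2. All 5 lie under 17.1, the median over all genes with such a peak, whose quartiles were 12.9 and 21.2.

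**Figure D1:**
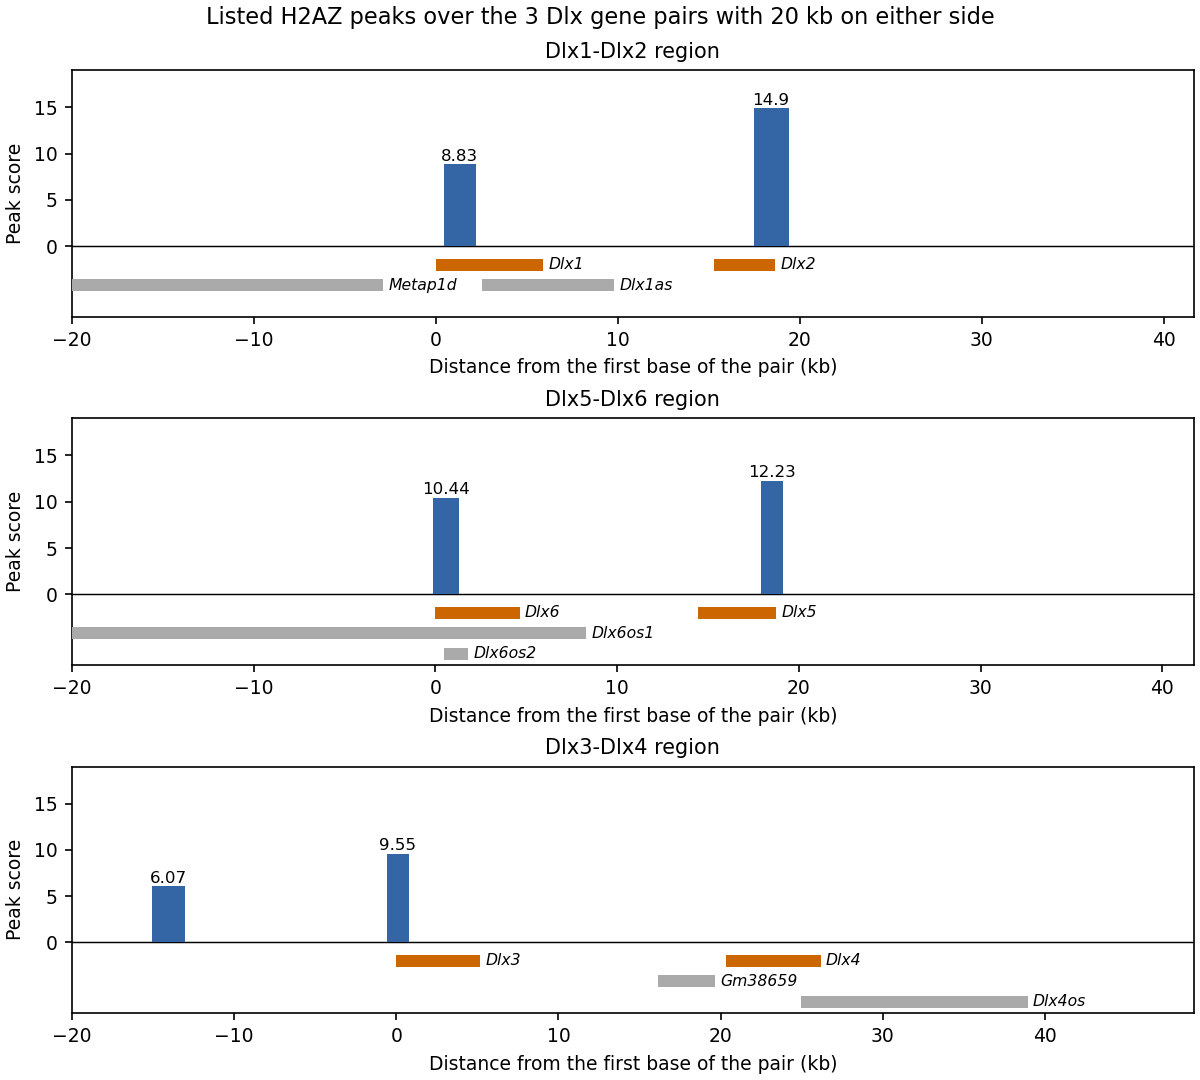
Listed H2AZ peaks (blue bars, width to scale, height the authors' score) over the 3 Dlx pairs, by distance in kb from the first base of each pair, with Dlx genes in orange and other annotated genes in grey. Peaks stand at the outer ends of Dlx1, Dlx2, Dlx6, Dlx5 and Dlx3, none lies between the genes of a pair, and Dlx4 has none.

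Dlx1 and Dlx2, the early pair in forebrain progenitors, had the lowest and the highest score of the 5 genes. Dlx1 (chromosome 2, 71528113 to 71533981) had a peak from 71528548 to 71530317 with a score of 8.83, rank 14521 of the list. The peak lay wholly inside the annotated gene, with its midpoint 1320 bp from the outer end. That end is the outermost of all annotated Dlx1 transcripts, and the midpoint lay 12.5 bp from the RefSeq start site whose promoter is printed above, so the printed Dlx1 bases are near the centre of the peak. Dlx2 (chromosome 2, 71543408 to 71546754) had a peak from 71545568 to 71547494 with a score of 14.9, rank 8133, and its midpoint lay 223 bp inside the gene from the start site. Of its 1927 bp, 740 lay outside the gene, and the rest covered 35.5% of Dlx2, the shortest of the 6 genes at 3347 bp. The Dlx2 score was 1.69 times the Dlx1 score; with 1 library the error of this ratio is unknown.

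Dlx5 and Dlx6, which follow Dlx1 and Dlx2 in differentiating GABAergic neurons and also pattern the jaw and limbs, had scores closer to each other. Dlx6 (chromosome 6, 6863334 to 6867970) had a peak from 6863196 to 6864619 with a score of 10.44, rank 12257. Dlx5 (chromosome 6, 6877801 to 6882068) had a peak from 6881253 to 6882461 with a score of 12.23, rank 10396, or 1.17 times the Dlx6 score. Both peaks overlapped the outer end of their gene, with 138 bp outside Dlx6 and 393 bp outside Dlx5. At 1209 bp the Dlx5 peak was the narrowest of the 5, at percentile 4.12 of all peak widths.

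Dlx3 and Dlx4, the pair known from skin, placenta and branchial arches, differed in whether a peak was listed. Dlx3 (chromosome 11, 95120117 to 95125296) had a peak from 95119538 to 95120899 with a score of 9.55, rank 13363. Its midpoint lay 101.5 bp inside the gene from the outer end, nearer than at any other member when outer ends are taken from the gene table. Dlx4 (chromosome 11, 95140447 to 95146294) held no listed peak, and its nearer end lay 19548 bp from the closest one. The region also held the only peak of the 3 regions away from a Dlx gene end, from 95105072 to 95107119, 12997 bases outside Dlx3. Its score of 6.07 was the lowest of the 6 region peaks, at percentile 7.62 of all scores, though its width of 2048 bp was the greatest of the 6.

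**Figure D2:**
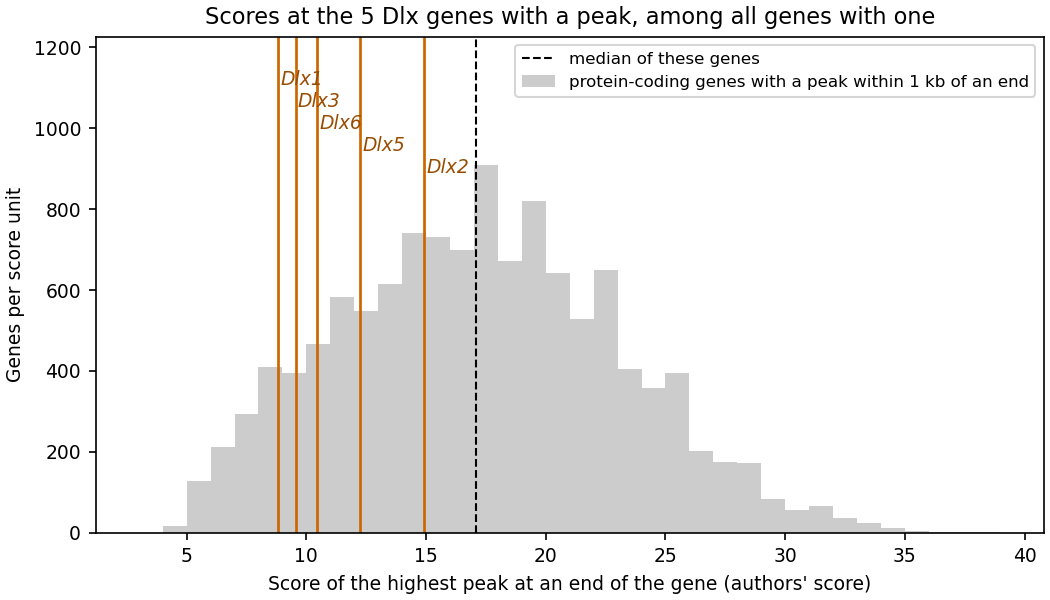
Number of protein-coding genes per score unit (grey bars, highest authors' score of a peak within 1 kb of an end), with the 5 Dlx genes that had such a peak as orange lines. The Dlx scores, 8.83 to 14.9, all lie left of the median of 17.1 (dashed line).

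The peaks at Dlx3, Dlx5 and Dlx6 were also narrow. Widths were 1209 bp at Dlx5, 1362 bp at Dlx3, 1424 bp at Dlx6, 1770 bp at Dlx1 and 1927 bp at Dlx2. The median was 1923 bp over all peaks and 2180 bp over the 11124 peaks at ends of protein-coding genes. Width and score are related in this list (Spearman correlation 0.55 across 21546 peaks of 1 library, given as a description), so the widths were set beside those of the 6517 peaks with scores in the Dlx range of 8.83 to 14.9. These had a median width of 1871 bp, and 15.0% of them were no wider than the Dlx6 peak; those of them at ends of protein-coding genes had a median of 2054 bp. Dlx3, Dlx5 and Dlx6 were thus narrow also among peaks of this score range, which was not matched to the score of each gene. Dlx1 and Dlx2 lay near the median of the range, but below that of its peaks at gene ends.

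No listed peak lay between the genes of any pair, although shared enhancers are known there. The stretches measured 9.43 kb between Dlx1 and Dlx2, 9.83 kb between Dlx6 and Dlx5 and 15.2 kb between Dlx3 and Dlx4. From the peak at Dlx1 to the one at Dlx2, 15.2 kb held no peak, and from the peak at Dlx6 to the one at Dlx5, 16.6 kb held none. Of 5053 neighbouring pairs of protein-coding genes 5 to 20 kb apart in any orientation, 43.0% had a peak between the genes. Orientation matters to this share: of the 696 convergent pairs, in which the promoter table gives both strands and the genes point towards each other, 10.6% had one, so a stretch without a peak was the usual case for pairs built like the Dlx pairs.

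Peaks at both outer ends and at neither inner end, as at Dlx1-Dlx2 and Dlx5-Dlx6, were found at 30.2% of the convergent pairs and at 7.05% of the pairs of any orientation. A peak at 1 outer end and no inner end, as at Dlx3-Dlx4, was found at 31.6% of the convergent pairs. The promoter table gives strands for Dlx1 and Dlx2; for the other 4 genes the orientation is background knowledge. The arrangement at the Dlx pairs was therefore shared with a large part of the convergent pairs of the genome and does not set the Dlx genes apart.

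**Figure D3:**
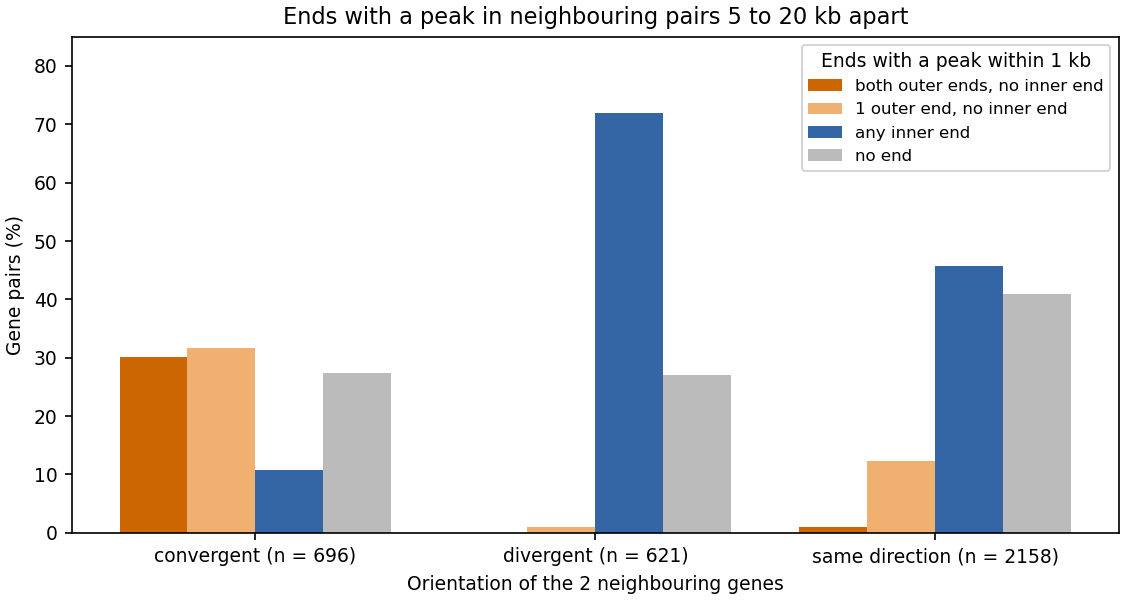
Share (%) of neighbouring protein-coding gene pairs 5 to 20 kb apart, by orientation, with a peak within 1 kb of the ends named in the key. Peaks at both outer ends and no inner end, the pattern of Dlx1-Dlx2 and Dlx5-Dlx6, make up 30.2% of convergent pairs, 0.927% of pairs in the same direction and none of the 621 divergent pairs.

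Each region held 2 peaks, which covered 3697 bp (6.30%) of the Dlx1-Dlx2 region, 2633 bp (4.48%) of the Dlx5-Dlx6 region and 3410 bp (5.15%) of the Dlx3-Dlx4 region. Among 3434 neighbouring pairs within 20 kb whose region with the same flanks measured 50 to 75 kb, the median was also 2 peaks (quartiles 0 and 4), and 58.6% had at most 2. Beyond the flanks, the next listed peak of the Dlx5-Dlx6 pair lay 239 kb away on the Dlx6 side (score 8.95), the longest such distance of the 3 pairs, and 72.7 kb away on the Dlx5 side (score 22.4). For Dlx1-Dlx2 the next peaks lay 73.8 kb from the pair on the Dlx1 side (score 19.7), at the start of Metap1d, a mitochondrial methionine aminopeptidase gene, and 33.9 kb away on the Dlx2 side (score 17.3). For Dlx3-Dlx4 they lay 42.4 kb from the pair on the Dlx3 side (score 18.5), beyond the weak peak described above, and 76.8 kb away on the Dlx4 side (score 11.6).

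The peak numbers say how far a missing peak can be read. Numbers rise along each chromosome, and those that are not listed belong to a longer list, of which 66.1% was deposited. The peaks at Dlx1 and Dlx2 have consecutive numbers, 3104 and 3105, and so have those at Dlx6 and Dlx5, 10611 and 10612, which leaves no number for an unlisted peak between them. On chromosome 11 the Dlx3 peak has number 21108 and the next listed peak, at 95223074, has number 21113, so 4 numbers are not listed in an interval that holds all of Dlx4. Outside the pairs, 1 number is not listed on each side of Dlx1-Dlx2 and 1 on the Dlx6 side of Dlx5-Dlx6, so the distances to the next listed peak there may be shorter in the longer list. Over the whole list, 68.9% of neighbouring listed peaks had consecutive numbers, and a run of 4 or more missing numbers occurred between 1.94%. Where the 4 after Dlx3 stood is not known, and a peak at Dlx4 or between Dlx3 and Dlx4 in the longer list cannot be told apart from none.

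No peak overlapped the RefSeq promoter window of an opposite-strand RNA gene at the pairs, though 1 lay within 1 kb of a start site. Dlx6os1, also called Evf2, is a long non-coding RNA gene of 51085 bp that runs across Dlx6 and is known to regulate Dlx5 and Dlx6. Its ends lay 42653 and 7008 bp from the nearest peak, and the peak at Dlx6 was the only one inside it. Its 2 promoter windows, the printed one and one starting at 6861683, lay 4.87 and 1.26 kb from a peak. The window of Dlx6os2, a short RNA gene inside Dlx6, lay 482 bp from the Dlx6 peak, and its start site 531 bp, within the 1 kb used for gene ends. The Dlx6 peak overlapped the Dlx6os2 gene itself, at the end away from this start site. The window of Dlx4os lay 23.9 kb from the nearest peak. Dlx1as, an antisense RNA gene that spans 71530638 to 71537891, from inside Dlx1 towards Dlx2, overlapped no peak, and its nearer end lay 321 bp from the Dlx1 peak. Gm38659, an RNA gene between Dlx3 and Dlx4, had none within 15349 bp.

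The windows inside a peak were rich in CG dinucleotides. Dlx1 had 27 CGs in its 300 bases and Dlx2 had 29, with 69.3 and 66.3% G and C, and both windows lay wholly inside a peak. The windows outside had fewer: 3 and 5 at the starts of Dlx6os1, 10 at Dlx6os2, 11 at Dlx4os and 3 at Gm38659. Both windows inside belong to protein-coding genes and all those outside to non-coding RNA genes. A difference by peak cannot be told apart here from one by kind of gene, and no window was matched for Dlx3 to Dlx6. Over all 32851 promoter windows 40.7% were overlapped by a peak. The share was 5.33% for windows with 0 to 4 CGs, 26.6% for 5 to 9, 62.9% for 10 to 14, 80.0% for 15 to 19 and 83.2% for 25 to 29. Dlx1 and Dlx2 fall in the class of 25 to 29, and the RNA gene windows in the first 3 classes. The windows of Dlx6os2 and Dlx4os, which no peak overlapped, thus sit in a class where most windows had one.

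**Figure D4:**
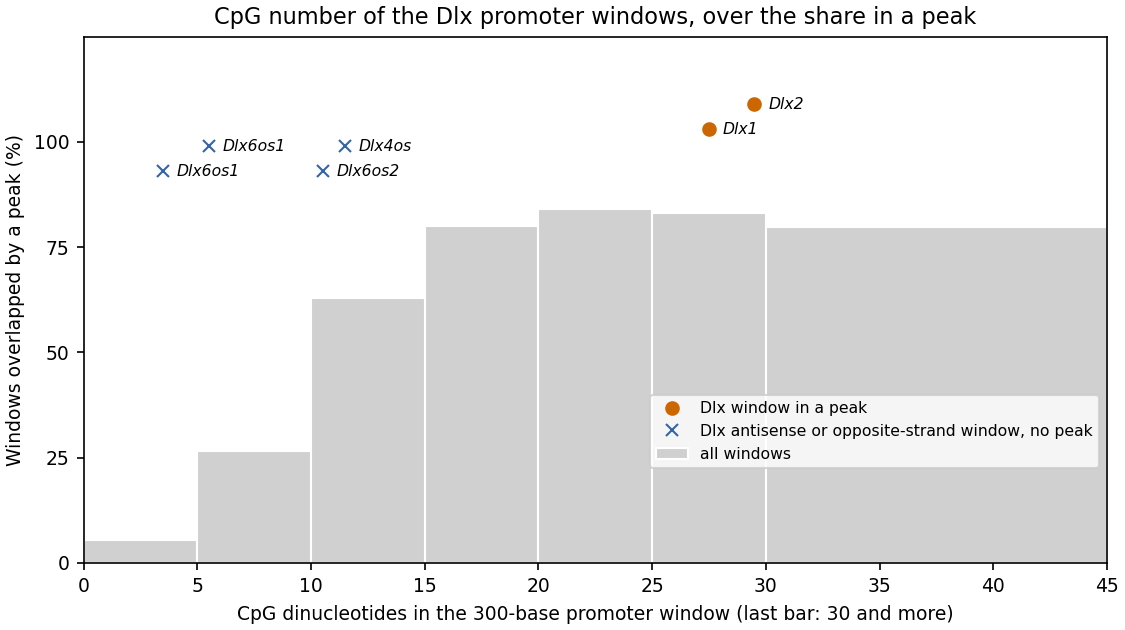
Share (%) of RefSeq promoter windows overlapped by a peak, by the number of CGs in the 300 bases (grey bars), with the Dlx windows marked along the x axis; the height of the marks carries no value. Dlx1 (27 CGs) and Dlx2 (29) are in a peak, and the windows of Dlx6os1 (3 and 5), Dlx6os2 (10) and Dlx4os (11) are not.

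Letter motifs also differed between these windows. TAATTA, which reads the same on both strands and holds the TAAT core that many homeodomains bind, occurred in both Dlx6os1 windows, with its first base at -130 and -74 in the printed one and at -174 in the other (the start site is base 1), and in 5.29% of all windows. It was in neither the Dlx1 nor the Dlx2 window. CACGTG, an E-box that reads the same on both strands, occurred at bases -142 and -42 of the Dlx2 window, and in 7.15% of all windows. CCAAT, searched on both strands, was found as ATTGG at base -74 of the Dlx2 window, as CCAAT at base -9 and ATTGG at base 8 of the printed Dlx6os1 window, and in 37.4% of all windows. CAGCTG, another E-box that reads the same on both strands, occurred at base 22 of that Dlx6os1 window, past the printed bases, and in 16.3% of all windows. These motifs were picked after the sequences were seen. Their matches do not overlap, and each is a description of letters only.

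Among other neighbouring genes of developmental families, the arrangement of Dlx1-Dlx2 and Dlx5-Dlx6 was not found, but that of Dlx3-Dlx4 was. Of 27 further pairs within 20 kb from the families searched, homeobox families and the zinc finger families Sp and Zic, 24 were Hox pairs, and none of the 27 had peaks at both outer ends and neither inner end. Strands were known for 10 of these pairs, of which 9 point the same way and 0 are convergent. Those with known strands are thus not built like the Dlx pairs, and for the rest the orientation was not looked at. By distance, only 10 of the 27 pairs were 5 to 20 kb apart, as the Dlx pairs are. As many peaks as in the Dlx1-Dlx2 region were found at 4 of these pairs, 3 of them Hox pairs and the other not reported here. Of the Hox pairs, Hoxd9 with Hoxd8 had peaks at 1 outer and 1 inner end (highest score 15.8), and Hoxa2 with Hoxa3 at no end. Hoxd13 with Hoxd12 had a peak at 1 outer end (8.65) and no inner end, as at Dlx3-Dlx4. Regions of neighbouring Hox genes overlap, so their counts share peaks.

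Genes that act with Dlx genes in the forebrain had peaks of low score as well. Of 19 forebrain regulators, 12 (63.2%) had a peak within 1 kb of an end, with a median score of 8.02, against 55.4% and 17.1 over all protein-coding genes. Highest were the TALE homeobox genes Pbx3 (31.06) and Meis1 (14.0), the hedgehog effector gene Gli3 (13.1) and the zinc finger gene Sp9 (8.83), and Gsx1 and Nkx2-1 had none at an end, though Nkx2-1 held an interior peak of 6.26. Gsx2, a homeobox gene known to act upstream of Dlx1 and Dlx2 and named after its value was seen, had a score of 7.50, below all 5 Dlx scores.

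In the list of GABAergic neuron and interneuron genes, 21 of 27 (77.8%) had such a peak, against 55.4% of all protein-coding genes, with a median score of 14.3 against 17.1. Highest were Satb1 (23.9), a chromatin organiser of maturing interneurons, Zfp503 (18.2) and Foxp2 (17.7), transcription factor genes of striatal neurons, and Prox1 (17.9), a homeobox gene of caudal interneurons. Erbb4, a neuregulin receptor gene, and Gad1, which encodes an enzyme of GABA synthesis, had no listed peak. Gad2, the paralogue of Gad1, had a score of 8.65, and Lhx6, a LIM homeobox gene of interneurons, 6.86; these were named after their values were seen.

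Of 22 genes of branchial arches, skeleton, skin and placenta, where Dlx3 to Dlx6 act, 10 (45.5%) had such a peak, below the 55.4% of all protein-coding genes, with a median score of 10.4 against 17.1. The highest were at the osteoblast gene Sp7 (19.7), the homeobox genes Barx1 (16.7) and Gsc (13.1) and the endothelin receptor gene Ednra (12.7), and Alx1, Esx1 and Evx2 had no listed peak. The Dlx3 score of 9.55 lay within the range of these peaks, 5.67 to 19.7. Of the 12 genes without a peak at an end, 5 held an interior peak.

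Over the whole list, markers of neural progenitors had a peak at an end in 7 of 8 cases, neuronal markers in 1 of 4, endothelial markers in 1 of 3 and microglial markers in 0 of 3, against 55.4% of all protein-coding genes. A peak list does not name a cell type, and a peak at a Dlx gene does not say whether the gene was transcribed in these cells.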

How the data were processed

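Peaks were called in 1 list for the series, and the peak names carry the name MACS, per the deposited file; its version, settings and control sample were not stated there. Per the submitters' processing notes, CASAVA 1.4, Bowtie2 2 and FastQC were used with mm9. Each line of the deposited list gives a start counted from 0 (printed here from 1), an end, a number and the authors' score, whose unit is not named. Positions were read as GRCm38, not mm9: 51.6% of peaks lay within 1 kb of an end of a protein-coding gene of RefSeq GRCm38.p6, against 11.0 and 11.4% after a shift of 100 kb either way. Of 21592 peaks, 46 out of order were left out. Read numbers are unknown, and no enrichment over input was computed.

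A peak counted where it overlapped a region, or the 1 kb on either side of a gene end, by at least 1 bp. Members, gene lists and tests were chosen with earlier results of these data known. Named are the 6 members, genes in their regions, the 4 highest-scoring members of each list and its first 3 in alphabetical order without a peak, and the homeobox pairs closest to Dlx1-Dlx2 in number of peaks; a few genes under this rule are not reported. Alternatives changed the flanks, the overlap rule, the window and the scores admitted. Python 3.11.15, numpy 2.4.6, pandas 2.3.3 and matplotlib 3.10.9 were used. The overlap code was tested on simulated peaks: it found 200 of 200 planted gene peaks, and 0 of 21770 gene calls departed from a brute-force count.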

Additional observations from a re-analysis of the deposited data

How the results depend on the processing

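Of 44 recomputed counts over 8 results, 34 stayed within 1.5 times the count reported and 10 did not. The admitted scores mattered most. With only peaks at or above the median score of 11.9, 2 of the 6 Dlx genes kept a peak, Dlx2 and Dlx5 (all genes: 44.4%). The 3 regions then held 2 peaks in all, 1 for Dlx1-Dlx2, 1 for Dlx5-Dlx6 and 0 for Dlx3-Dlx4. For the Dlx genes and regions this follows from the scores given above. In the lists, 3 of 19 forebrain regulators, 13 of 27 GABAergic genes and 4 of 22 branchial arch genes kept a peak. Only the GABAergic list stayed above the 44.4% of all genes. With flanks of 10 kb, or none, the Dlx3-Dlx4 region held 1 peak, since the weak peak beyond Dlx3 fell outside. Windows of 500 bp, 2 kb and 5 kb, flanks of 50 kb, peak midpoints and merged peaks left every Dlx count within 1.5 times. Counting any peak in a gene or 1 kb around it also left 5 of 6 Dlx genes with a peak, against 61.1% of all genes. By that rule 15 of the 22 branchial arch genes had a peak, at the limit of 1.5 times the 10 reported. That list then stood above the share of all genes, not below it. The counts were 16 of 19 for forebrain regulators and 22 of 27 for GABAergic genes. Read depth is unknown, so it is unknown whether weaker peaks at Dlx4 or between the pairs could have been detected.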
